A study of Mus musculus with 15 samples.

Results

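The livers of Esr1-null females (FKO, 5 mice) were compared with those of wild type males (MWT, 3 mice), to ask how far the hepatic transcriptome of females lacking estrogen receptor alpha had come to that of a normal male. The comparison used these 8 of the 15 libraries of the study, and the 17117 autosomal genes out of 17655 genes tested. The remaining libraries, from 3 wild type females (FWT) and 4 Esr1-null males (MKO), supplied the female reference and the second knockout group. All mice were 8 weeks old and of the strain B6N(Cg)-Esr1tm4.2Ksk/J. FKO and MKO mice were homozygous for a deletion of exon 3 of Esr1 in every tissue, and the study describes raised testosterone in both sexes of this line. FWT and MWT mice were wild type for Esr1. The tissue was whole liver, with 1 library for each mouse. FKO and MWT mice differ in both sex and genotype, and the contributions of the 2 cannot be told apart in this contrast. For many of the genes, but not all, values of FWT, MKO or both are given beside it.

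Sex differences of the mouse liver are set largely by the pattern of growth hormone release, which comes in pulses in males and is nearly continuous in females. Gonadal steroids set that pattern, and the transcription factors STAT5B, CUX2 and BCL6 carry it to the genes. The genes concerned code for steroid- and drug-metabolising cytochrome P450s, sulfotransferases, organic anion transporters, and the major urinary proteins (MUPs) that male mice excrete as pheromone carriers.

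Counts per library lay between 27799061 and 78624766 in the whole series. No 2 replicates of FKO or MWT were alike enough to be a repeat of 1 library (chi-square per gene of at least 33.3). Small RNA genes took 2.33% of the counts in FKO1 and 1.87% in FKO2, against 1.18% to 1.40% in the other FKO mice and 1.15% to 1.32% in MWT. Mitochondrial genes took 11.2% in FKO1, 7.40% in FKO2 and 1.97% in FKO4, against 5.15% to 6.10% in MWT. Without FKO1 and FKO2, 58 genes were called higher and 54 lower, against 71 and 62 with all 5 mice. In bulk liver, fewer cells of a type and less RNA per cell cannot be told apart.

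FKO livers differed from MWT livers at 133 autosomal genes, 71 higher in FKO (0.415% of the genes tested) and 62 lower (0.362%). A gene was called when its adjusted p was under 0.05 and its log2 fold change at least 1.5 in size. Counts of list members and tests of single genes rest on the adjusted p alone, so a gene that passed need not be a called one. Without a minimum fold change, 220 genes were higher (1.29%) and 208 lower (1.22%). These shares are the background for all counts of list members below. The median log2 difference over all autosomal genes was 0.03. Of the 71 genes called higher, 51 were female-biased in wild type mice, and of the 62 called lower, 50 were male-biased. MWT2, MWT3 and the FKO mice left out in turn kept the number of genes called higher within 1.5 times of the full count, whereas it fell to 47 without MWT1.

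To sort the genes by how far they had come, the 305 autosomal genes with a wild type sex difference were used. These were 154 female-biased genes (0.9% of those tested) and 151 male-biased genes (0.882%), by the same threshold in FWT against MWT. A gene fell short of the MWT level when FKO differed from MWT toward FWT at an adjusted p under 0.05, and overshot when it differed away from FWT. It reached the level when it did not pass that threshold and the 95% interval of FKO minus MWT lay within a factor of 2 in either direction. The same MWT mice served to choose these genes and as the reference, so the counts describe the genes and are no independent test.

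Of the female-biased genes, 69 fell short, 7 reached the MWT level and none overshot by edgeR's quasi-likelihood test (0 by DESeq2, 2 at an unadjusted p under 0.05, 1 without MWT3). Of the male-biased genes, 71 fell short, 27 reached the level and 2 overshot. The other 78 female-biased and 51 male-biased genes could not be placed. Their difference did not pass the test, but the interval reached beyond the margin. Of the 78, 71 lay on the FWT side of MWT, and of the 51, 45 did. Of the genes that reached the level, 3 of the 7 female-biased and 22 of the 27 male-biased ones lay on that side. The median log2 differences of FKO minus MWT over the 78 and the 51 were 0.96 and -0.85. In 15 of those 78, neither the 5 FKO mice nor the 3 MWT mice held more than 3 counts in sum, so that a difference was not detectable at this depth. Without MWT1 the number of female-biased genes that fell short was 39. Without MWT3 the numbers that reached the level were 3 female-biased and 16 male-biased, and without FKO4 there were 4 female-biased ones. DESeq2, the unadjusted p and each fit with a mouse left out chose the sex-biased genes anew. Their sets therefore need not be the genes counted here.

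The position of FKO between the 2 wild type sexes was expressed on the log2 CPM scale, with 0 at the FWT mean and 1 at the MWT mean. The median over female-biased genes was 0.526 (quartiles 0.324 and 0.745) and over male-biased genes 0.601 (quartiles 0.333 and 0.833). The 5 FKO mice resembled each other in this measure, with medians between 0.518 and 0.550 for female-biased genes and between 0.541 and 0.659 for male-biased genes. Among genes that fell short, the median positions were 0.322 and 0.362.

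**Figure D1:**
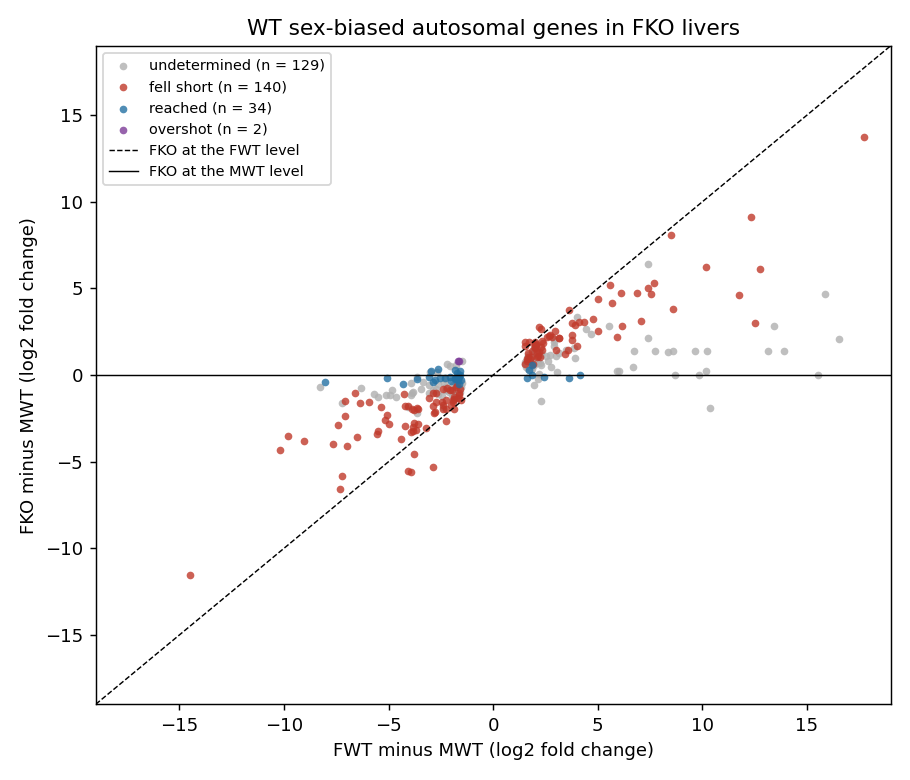
Each point is 1 of the 305 sex-biased autosomal genes, with the log2 fold change of FWT minus MWT on the x axis and of FKO minus MWT on the y axis, coloured by class. The 140 genes that fell short (69 female-biased, 71 male-biased) lie between the horizontal line of the MWT level and the dashed line of the FWT level or near the latter, and the 34 that reached the level lie along the horizontal line.

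Genes that fell short were also compared with FWT. Of the 69 female-biased ones, 34 were lower in FKO than in FWT at an adjusted p under 0.05 (2.56% of all autosomal genes were), none was higher, and 35 showed no difference past the threshold. Of the 71 male-biased ones, 35 were higher in FKO than in FWT (3.13% of all autosomal genes were), 35 showed no difference past the threshold, and Mup18 was lower. Of all 154 female-biased genes, 93 were lower in FKO than in FWT and 0 higher. Of all 151 male-biased genes, 99 were higher and 1 was lower. The FWT mice also served to choose the sex-biased genes, and these FKO mice are the same as in the first comparison. In MKO minus MWT, the median log2 difference was 1.53 over the 69 female-biased genes and -1.52 over the 71 male-biased genes, beside 2.17 and -1.98 in FKO minus MWT, and both comparisons share the MWT mice.

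Cytochrome P450s of the female liver made the largest shortfalls. Of 17 listed female-biased P450 genes, 10 were higher in FKO than in MWT (1.29% of all autosomal genes were) and none lower. The median log2 difference over the list was 3.02. This list and that of male-biased P450s below name genes by their sex bias, so the direction was partly given. Cyp2b9 (chromosome 7, 26173411 to 26210661, GRCm38), a P450 of xenobiotic and fatty acid oxidation, had 561, 523 and 611 CPM (read counts scaled to library size by TMM, per 1e6 counts) in FWT. No read of it was counted in any MWT mouse, and the 5 FKO mice had 15.8, 44.1, 40.3, 49.0 and 27.6 CPM. Against the limit of 0.0208 CPM that 3 counts over the MWT mice would give, Cyp2b9 was at least 1703-fold higher in FKO (adjusted p = 6.09e-06), while its mean was 6.26% of that in FWT.

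Cyp2b13, the neighbouring gene, behaved otherwise. It had 124, 131 and 201 CPM in FWT and no count in MWT, and FKO mice had between 0 and 0.165 CPM, 15 counts in all, or 0.0440% of the FWT mean. Its difference from MWT did not pass the threshold (adjusted p = 0.152) except with the Wald test of DESeq2 (adjusted p = 0.0405). The start regions of the 2 genes are shown because they are nearly the same sequence, identical at 298 of 300 bases, in 2 genes that FKO livers kept to such unequal extents. The windows run from 250 bases before to 50 after the RefSeq start on GRCm38.p6, plus strand, at chr7:26173159-26173458 for Cyp2b9 and chr7:26061245-26061544 for Cyp2b13, and capitals mark the bases that differ.
Cyp2b9: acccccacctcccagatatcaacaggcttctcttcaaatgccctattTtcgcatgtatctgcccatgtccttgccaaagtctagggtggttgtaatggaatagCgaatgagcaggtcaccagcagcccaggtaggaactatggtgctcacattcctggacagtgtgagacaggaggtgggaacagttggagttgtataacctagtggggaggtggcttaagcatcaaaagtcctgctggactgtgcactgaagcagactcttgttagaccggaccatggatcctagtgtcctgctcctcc
Cyp2b13: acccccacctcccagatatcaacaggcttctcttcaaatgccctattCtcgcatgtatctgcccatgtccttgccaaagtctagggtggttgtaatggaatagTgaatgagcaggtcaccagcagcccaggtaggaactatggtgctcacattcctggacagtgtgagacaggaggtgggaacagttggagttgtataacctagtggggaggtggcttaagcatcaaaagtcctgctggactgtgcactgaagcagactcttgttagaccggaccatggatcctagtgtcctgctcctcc
How reads shared by copies of such similarity were assigned is not given in the sources used here, and the values of both genes carry that uncertainty.

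Cyp2a4, a steroid hydroxylase, had 899.7, 1270.5 and 986 CPM in FWT and 0.147 to 0.296 CPM in MWT. FKO mice had 70.7, 51.6, 98.6, 259 and 84.6 CPM, all above every MWT mouse and below every FWT mouse. The log2 fold change of FKO over MWT was 9.11 ± 0.94 (SE, n = 5 and 3 mice, adjusted p = 1.02e-05). Cyp2b10, which the receptor CAR induces, had 1.36 to 2.84 CPM in FKO against 0.0159 to 0.123 in MWT (log2 fold change 5.33 ± 0.80, adjusted p = 2.2e-05).

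A subset of the female-biased genes remained higher in FKO than in MKO. This held at an adjusted p under 0.05 for 10 of the 69 genes that fell short, against 0.129% of all autosomal genes, and none of the 69 was lower, as 0.0701% of all autosomal genes were. The 69 genes were chosen on the same FKO values that enter here, so these counts are a description. Of the male-biased genes that fell short, Mup-ps20 and Mup-ps7, pseudogenes of the MUP family, were lower in FKO than in MKO. The 10 female-biased genes included Slc22a26, A1bg and Cux2 besides Cyp2b9 and Cyp2a4. Slc22a26, an organic anion transporter, had 19.2, 15.2, 9.85, 16.6 and 10.4 CPM in FKO, between 0.0741 and 0.333 CPM in MWT and between 1.83 and 3.14 CPM in MKO. FKO exceeded MWT by 6.21 ± 0.47 (log2, adjusted p = 3.96e-08) and MKO by 2.56 (95% interval 2.07 to 3.05, adjusted p = 1.96e-05). The FKO, MKO and MWT mice did not overlap for this gene.

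A1bg, coding for a plasma glycoprotein, had 261 to 688 CPM in FWT, and in FKO 1.80, 5.96, 3.75, 9.94 and 3.77 CPM against at most 0.0988 CPM in MWT. Its log2 fold change over MWT was 6.14 ± 1.16 (adjusted p = 0.000158). Cux2, a repressor of male-biased genes in the female liver, had 4.53, 1.71, 1.88, 3.29 and 10.8 CPM in FKO and 0.464 to 0.840 in MWT (log2 fold change 2.82 ± 0.55, adjusted p = 0.00924). The adjusted p for Cux2 was 0.0572 without MWT1 and 0.0528 without MWT2, whereas A1bg passed with any mouse left out.

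The largest differences between FKO and MKO among these genes were in Cyp2c69 and Cyp2c40, both on chromosome 19 and described here after their values were seen. Cyp2c40 had 275, 109.7, 155, 267 and 248 CPM in FKO, against 307 to 326 in FWT, 8.66 to 11.1 in MWT and 2.68 to 12.6 in MKO. All FKO mice were thus above all MWT mice and below all FWT mice. The difference from FWT did not pass the threshold (adjusted p = 0.314), and MKO overlapped MWT. Cyp2c69 had 48.0 to 205 CPM in FKO, 512 to 928 in FWT, 3.93 to 4.42 in MWT and 0.801 to 4.11 in MKO. FKO exceeded MKO by 5.94 on the log2 scale for Cyp2c69 (95% interval 4.99 to 6.88) and by 4.90 for Cyp2c40 (4.22 to 5.58).

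Other female-biased genes were above MWT in both knockout sexes. Cyp4a14, a fatty acid omega-hydroxylase and target of PPARA, had 54.1, 164, 45.7, 203 and 364 CPM in FKO, 54.7 to 267 CPM in MKO, 26.5 to 575 CPM in FWT and 0.539 to 0.716 CPM in MWT. FKO exceeded MWT by 8.07 ± 1.12 (log2, adjusted p = 0.00185). The difference between FKO and MKO was 0.51 with a 95% interval from -1.07 to 2.08, which leaves room for sizeable differences in either direction. Of 16 listed PPARA targets, 4 were higher in FKO than in MWT (1.29% of all autosomal genes were) and none lower, with a median of 0.52. These were Acot3, Acot4, Acot2 and Vnn1, and Acot enzymes cleave fatty acyl-CoA in peroxisomes and mitochondria. Acot3 had 17.8 to 71.0 CPM in FKO, 11.1 to 19.3 in MKO and 0.293 to 2.22 in MWT (log2 fold change of FKO over MWT 4.76 ± 0.55, adjusted p = 0.00024). Acot4 also passed with any mouse left out, whereas Acot2 and Vnn1 no longer passed when MWT1, MWT2 or MWT3 was left out (adjusted p of 0.0568 to 0.151), and Vnn1 also without FKO2 (0.0739) or FKO4 (0.0693).

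The prolactin receptor gene Prlr, whose product relays lactogenic hormone signals to STAT5, had 235, 148, 147, 118 and 180.1 CPM in FKO and 47.5, 48.5 and 89.1 in MWT. All FKO mice were above all MWT mice, and the log2 fold change was 1.42 ± 0.23 (adjusted p = 0.00313). In MKO the level was 64.5 to 97.9 CPM and in FWT 285 to 364 CPM. Of 14 listed genes of the growth hormone receptor to STAT5 axis, Prlr and Igfbp3 were higher and none lower by edgeR (median 0.03). Of 14 listed sex-biased regulators, Cux2 alone differed by edgeR (median 0.13). DESeq2 had 2 higher and 0 lower in each of these lists. An unadjusted p under 0.05 gave 2 higher and 3 lower in the axis, and 3 higher and 2 lower among the regulators. Bcl6, a repressor that is higher in the male liver, had 4.61 to 35.4 CPM in FKO and 18.1 to 77.1 in MWT, with an adjusted p of 0.256. The values of Bcl6 overlapped between the groups, and its log2 difference had a 95% interval from -2.82 to -0.05. The log2 difference of Bcl6 was -1.44 with all mice and -0.514 without MWT3, with an adjusted p of 0.757.

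**Figure D2:**
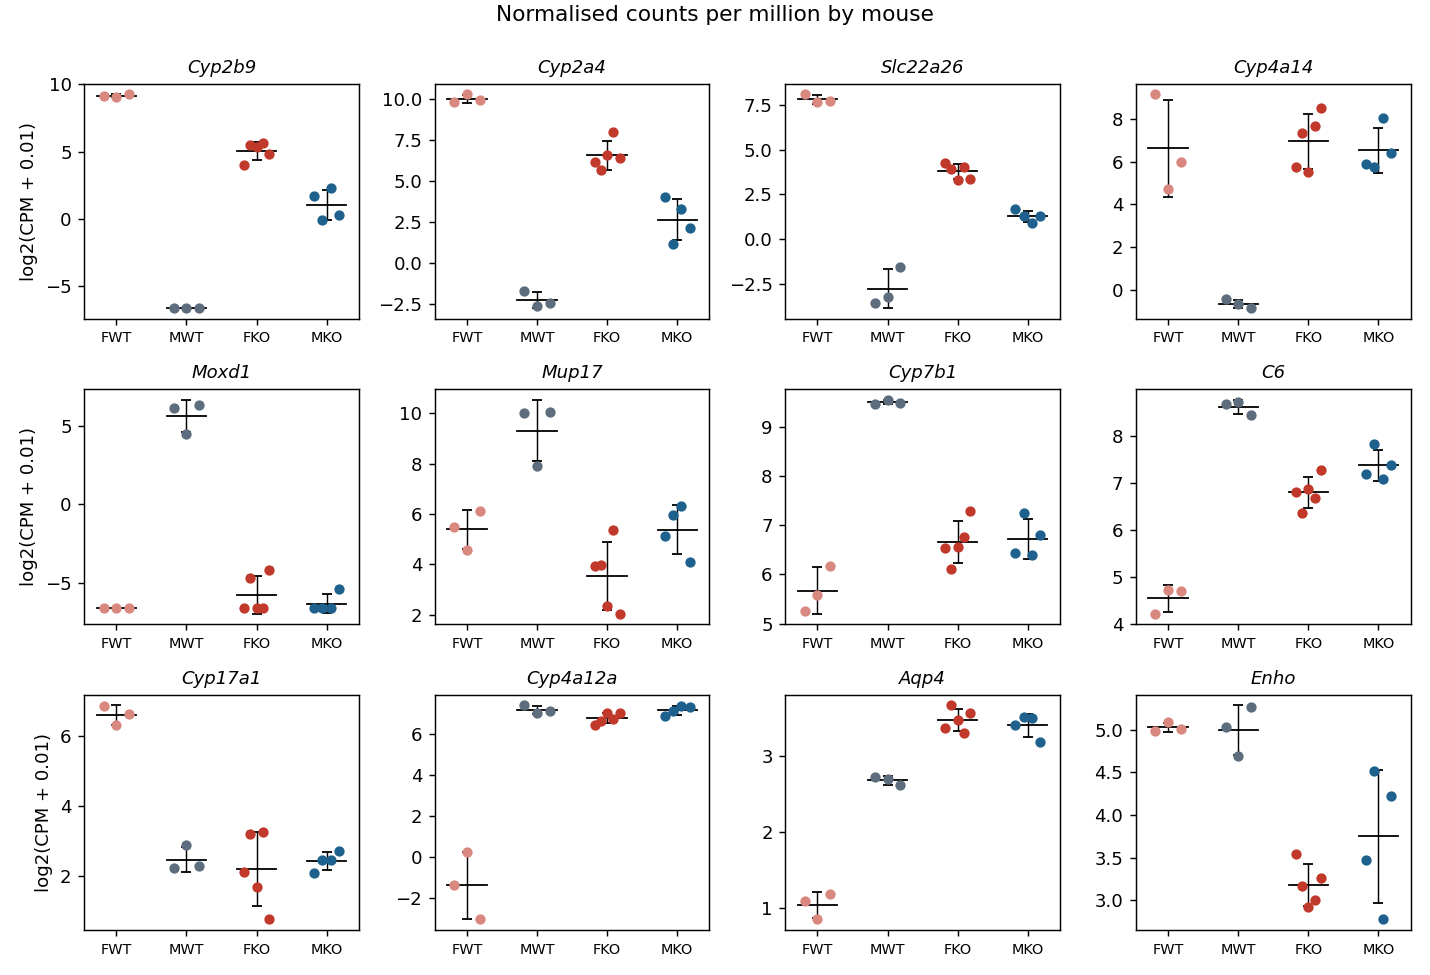
Points show log2(CPM + 0.01) of single mice for 12 genes in FWT (n = 3), MWT (n = 3), FKO (n = 5) and MKO (n = 4), with the mean as a line and the SD as a bar. In the top row the FKO mice stand well above MWT, in the middle row well below it, and in the bottom row Cyp17a1 and Cyp4a12a overlap or adjoin MWT, Aqp4 lies above it and Enho below both wild type groups.

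Among male-biased genes, the MUPs were the largest group that fell short. Of 20 MUP genes tested, 17 were lower in FKO than in MWT (1.22% of all autosomal genes were) and none higher. The median log2 difference of the 20 was -2.91. Their summed level was 6428 to 13570 CPM in FKO and 13940 to 19950 CPM in MWT. Mup7 had 2912, 1767 and 2494 CPM in MWT, and 333, 107, 103, 147 and 151 CPM in FKO (log2 fold change -3.83 ± 0.34, adjusted p = 5.58e-06). FKO mice were above the FWT mice, which had 2.39 to 6.46 CPM, so Mup7 had moved part of the way.

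Mup17 showed no such move. It had 1027, 239 and 1057 CPM in MWT, 15.4, 15.6, 5.06, 41.7 and 4.09 CPM in FKO, 23.9 to 69.9 CPM in FWT and 17.1 to 80.5 CPM in MKO. The log2 fold change of FKO over MWT was -5.56 ± 0.66 (adjusted p = 0.00024), and against FWT the adjusted p was 0.185. Mup9, Mup15, Mup16 and Mup18 fell by 6.59, 5.59, 4.54 and 5.33 on the log2 scale, and Mup18 was below FWT as well (adjusted p = 0.00770). MWT2 had the lowest of the 3 MWT values for each of these 5 genes, with 1.22 CPM of Mup9 against 25.3 and 30.1 in the other 2 mice. Each of the 5 remained past the threshold with any mouse left out.

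Mup3 stood apart from the family. It was the most abundant MUP gene in FKO, with 12027, 7983, 5784, 6499.8 and 7067 CPM against 9299, 7756 and 7847 in MWT and 2263 to 3804 in FWT. Its difference from MWT was -0.08 on the log2 scale, with a 95% interval from -0.54 to 0.38, and FKO differed from FWT (adjusted p = 0.00341). Mup3 was singled out after its values were seen, and its wild type sex difference of -1.35 was under the fold threshold for a sex-biased gene.

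**Figure D3:**
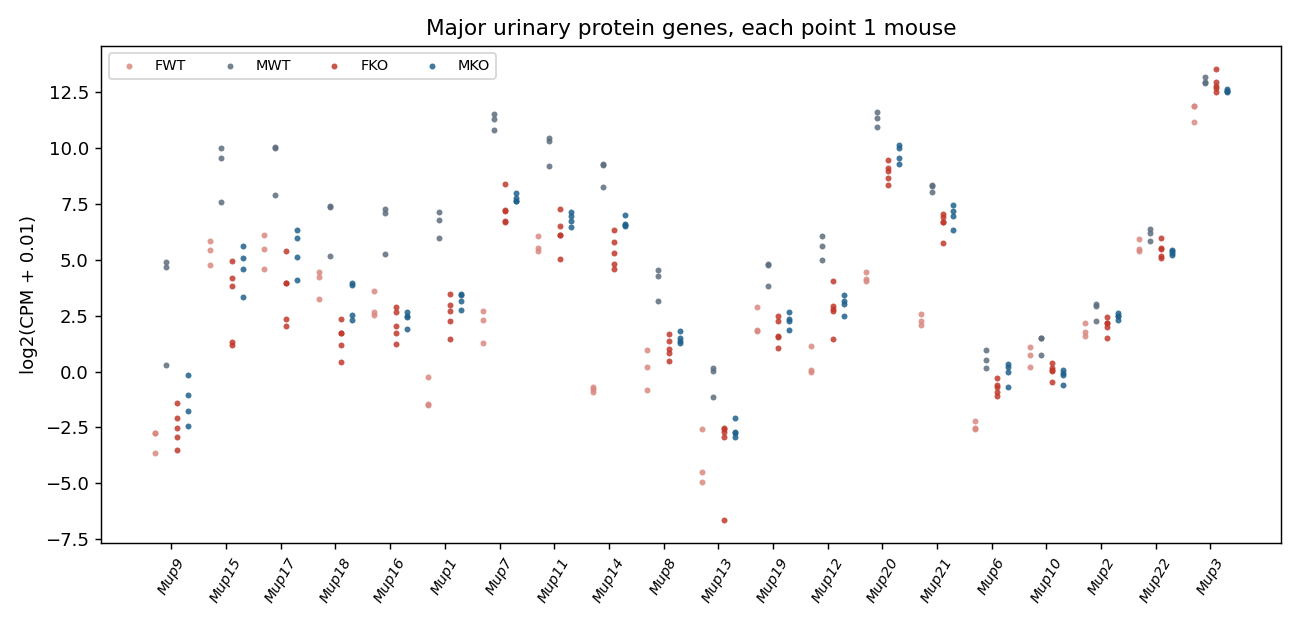
Each point is the log2(CPM + 0.01) of 1 mouse for the 20 MUP genes tested, ordered by the log2 fold change of FKO minus MWT, in FWT, MWT, FKO and MKO. FKO mice lie below MWT in 17 genes by the test, and at the right end Mup3 overlaps MWT and lies above FWT.

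MUP genes are copies of each other, and the start regions of Mup15 and Mup17 are shown to make plain how alike the members are that share the lowest levels. Both lie on the minus strand of chromosome 4, at chr4:61439655-61439954 and chr4:61595783-61596082 (GRCm38.p6, RefSeq), and align with 297 identical bases, none different and 6 unpaired ones, which are in capitals.
Mup15: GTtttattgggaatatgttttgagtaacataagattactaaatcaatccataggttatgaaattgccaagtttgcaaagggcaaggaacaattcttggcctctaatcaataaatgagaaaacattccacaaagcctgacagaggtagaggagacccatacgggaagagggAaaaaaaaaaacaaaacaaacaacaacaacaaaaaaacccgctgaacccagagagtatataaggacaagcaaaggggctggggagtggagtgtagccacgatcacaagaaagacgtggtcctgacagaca
Mup17: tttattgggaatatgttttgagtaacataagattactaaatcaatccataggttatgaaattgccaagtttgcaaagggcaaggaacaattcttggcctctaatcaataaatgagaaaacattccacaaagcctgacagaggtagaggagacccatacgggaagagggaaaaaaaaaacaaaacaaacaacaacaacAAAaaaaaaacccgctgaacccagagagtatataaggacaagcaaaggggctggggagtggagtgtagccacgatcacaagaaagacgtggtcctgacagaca
Both hold ATTGAT on 1 of the strands, a core letter sequence bound by CUX and HNF6 factors. Of the 71 male-biased genes that fell short, 43 had such a RefSeq window and 12 of these windows (27.9%) held ATTGAT on either strand. It stood in 8 of 46 windows (17.4%) of the female-biased genes that fell short, in 0 of 20 of the male-biased genes that reached the MWT level, and in 7.80% of 27025 windows of all genes. The STAT5 letters TTCNNNGAA stood in 3 of 43, 4 of 46 and 2 of 20 of the same windows, and in 8.37% of all. MUP windows are copies, so they are not independent, and a match of letters is not a bound site.

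Moxd1, coding for a copper monooxygenase-like protein, had the largest fall. It had 71.5, 22.7 and 81.7 CPM in MWT, no count in FWT, and in FKO 0.0276 and 0.0453 CPM in FKO2 and FKO5 and none in the other 3 mice. The log2 fold change was -11.54 ± 1.35 (adjusted p = 8.13e-09). MKO mice had a single value above 0, of 0.0133 CPM, so this male-biased gene was near 0 in both knockout sexes.

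Of 7 male-biased P450 genes tested, Cyp7b1, Cyp2u1 and Cyp2d9 were lower in FKO and none higher by edgeR (median -0.68). DESeq2 had 3 lower and 1 higher, and an unadjusted p under 0.05 gave 5 lower and 1 higher. Cyp7b1, a hydroxylase of oxysterols and steroids, had 707, 746 and 713 CPM in MWT against 93.3, 69.4, 94.6, 108 and 156 CPM in FKO. This was a log2 fold change of -2.79 ± 0.25 (adjusted p = 4.08e-06). MKO had 83.7 to 152 CPM, and FKO minus MKO was -0.05 with a 95% interval from -0.53 to 0.43. Cyp2d9, a male steroid hydroxylase, stood at 507 to 1182 CPM in FKO against 1426 to 1902 in MWT and 55.9 to 118 in FWT, with an adjusted p of 0.0294. It no longer passed without FKO1, FKO2, FKO4 or any single MWT mouse (adjusted p between 0.0509 and 0.118), and Cyp2u1 did not without MWT1 (0.0702).

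Some genes of complement and the acute phase response, which code for plasma proteins, were below the MWT level. Of 20 complement and acute phase genes, 8 were lower in FKO (1.22% of all autosomal genes were), none was higher and 12 did not pass. The median over the 20 was -0.67. C6, a subunit of the complement membrane attack complex, had 409, 423 and 348 CPM in MWT and 112, 81.6, 117, 103 and 154 in FKO (log2 fold change -1.79 ± 0.19, adjusted p = 2.44e-05). C4a, a sex-limited paralog of complement C4, had 53.7 to 87.8 CPM in MWT and 6.32 to 11.1 in FKO (-2.95 ± 0.22, adjusted p = 5e-07). In both genes the groups did not overlap. Saa1 and C9 were lower as well, but Saa1 overlapped between the groups and no longer passed without MWT3 (adjusted p = 0.119) or without FKO1 and FKO2 together (0.0558), and C9 without MWT1 (0.0828). Serpina1e, an alpha-1-antitrypsin paralog, was at 1348 to 3630 CPM in FKO against 7521 to 9119 in MWT (-1.78 ± 0.27, adjusted p = 0.000898). Of 13 Serpina genes, Serpina1e was lower and Serpina3m and Serpina6 were higher by edgeR (median -0.36), with Serpina3m at 218 to 369 CPM in FKO and 127 to 145 in MWT. DESeq2 and an unadjusted p under 0.05 each gave 5 lower and 2 higher. The summed level of the 13 genes was 18330 to 22410 CPM in FKO and 28340 to 31440 in MWT.

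Gstp1, a detoxifying glutathione S-transferase, had 1734, 1438 and 1334 CPM in MWT and 359, 295, 359, 363 and 520 in FKO. The log2 fold change was -1.99 ± 0.17 (adjusted p = 3.25e-06), FWT had 84.99 to 122 CPM and MKO 550 to 756 CPM. Gstp1 and its neighbour Gstp2 were the 2 of 16 glutathione S-transferases that differed by edgeR (median 0.21), and Gstp2 no longer passed without MWT1 or MWT3 (adjusted p of 0.0564 and 0.0925). DESeq2 had 2 of the 16 lower and 0 higher, and an unadjusted p under 0.05 gave 3 lower and 6 higher.

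Genes that reached the MWT level had a median wild type difference (log2, FWT minus MWT) of 1.87 where female-biased and -1.85 where male-biased, beside 2.96 and -3.68 for genes that fell short. This contrast is partly given by the classes. A large wild type difference leaves more room for a detectable shortfall, and the same MWT mice enter both measures. Cyp17a1, the hydroxylase and lyase of androgen synthesis, was female-biased in these livers, with 116, 79.0 and 97.9 CPM in FWT and 4.67, 7.26 and 4.804 CPM in MWT. FKO mice had 4.28, 9.15, 3.18, 9.53 and 1.68 CPM, on both sides of the MWT values. FKO minus MWT was -0.01 on the log2 scale (95% interval -0.85 to 0.83, adjusted p = 0.993), and an exact two-sided permutation test of log2 CPM gave p = 0.714 with 0.0357 as the smallest value that 5 against 3 mice allow. The interval is nearly as wide as the margin. Trim24, a nuclear receptor cofactor, and Sall1, a zinc finger regulator, were the other 2 female-biased genes that reached the level and had a mean log2 CPM over 1. Trim24 had 26.2 to 49.1 CPM in FKO and 20.8 to 30.9 in MWT (95% interval 0.18 to 0.95), and Sall1 had 5.56 to 15.7 in FKO and 8.53 to 12.99 in MWT.

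Cyp4a12a, an omega-hydroxylase of fatty acids and the main one of the male liver, met the rule for reaching the male level from the other side. It had 0.378, 1.20 and 0.115 CPM in FWT, 168, 131 and 138 CPM in MWT, and 86.2, 99.5, 131, 107 and 130.2 CPM in FKO. The log2 difference of FKO from MWT was -0.39 (95% interval -0.96 to 0.17, adjusted p = 0.461), and MKO had 116 to 164 CPM. The exact two-sided permutation test of log2 CPM gave p = 0.0714 for Cyp4a12a, FKO against MWT. Gm4956, Nat8 and Cib3 followed by the size of their wild type sex difference. Nat8, an N-acetyltransferase, had 3.70 to 8.32 CPM in FKO, 7.63 to 10.7 in MWT and 0.344 to 0.576 in FWT, and Cib3, a calcium-binding protein, had 5.003 to 15.6, 7.21 to 14.03 and 0.669 to 2.03 CPM in the same groups.

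Aqp4 and 9130409I23Rik were the 2 male-biased genes that overshot. Aqp4, a water channel, had 6.59, 6.48 and 6.10 CPM in MWT, 10.2, 12.6, 11.1, 9.86 and 11.8 CPM in FKO, 9.08 to 11.4 CPM in MKO and 1.80 to 2.27 CPM in FWT. All FKO mice were above all MWT mice, by 0.80 ± 0.11 on the log2 scale (adjusted p = 0.000788), and the gene passed with any mouse left out. For 9130409I23Rik, a gene known by its clone name, FKO had 21.2 to 35.05 CPM and MWT 11.3 to 22.1 CPM, which overlap. Its adjusted p of 0.0354 rose to between 0.0659 and 0.182 without FKO1, FKO2, FKO4, MWT2 or MWT3.

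Some genes that the study names did not pass the threshold, or passed in some of the settings tried. Hsd3b5, a male-specific steroid dehydrogenase, had 194 to 323 CPM in FKO, 421 to 459.6 in MWT and 18.2 to 52.0 in FWT, and did not pass the threshold (log2 difference -0.82, 95% interval -1.40 to -0.24, adjusted p = 0.126) although the groups did not overlap. It passed without the filter on low counts (adjusted p = 0.0218), with the FKO and MWT libraries alone (0.0252), without FWT1 (0.0291) and with DESeq2 (0.0479), and its log2 difference lay between -0.955 and -0.742 in all 20 settings. With all libraries and the filter, none of the 5 Hsd3b genes tested passed in edgeR (median -0.30), 1 was lower at an unadjusted p under 0.05, and 1 was lower by DESeq2. Elovl3, a fatty acid elongase, had 31.2 to 80.5 CPM in FKO and 66.2 to 189 in MWT (adjusted p = 0.111). It passed without the filter on low counts (adjusted p = 0.0106) and without FKO5 (0.0499). Aldh3b3 was low, at 0.159 to 0.599 CPM in FKO and at most 0.0634 CPM in MWT (adjusted p = 0.0235), and no longer passed when any single MWT mouse was left out (0.0510 to 0.104).

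Differences outside the wild type sex bias came to 31 called genes without a sex difference past the adjusted p, 20 higher and 11 lower in FKO. Enho, coding for the secreted peptide adropin, had 11.6, 9.02, 7.56, 8.00 and 9.63 CPM in FKO, 32.7, 25.8 and 38.5 in MWT and 31.7, 34.0 and 32.3 in FWT. It was thus below both wild type sexes (-1.82 ± 0.27 against MWT, adjusted p = 0.000822), and MKO ranged from 6.86 to 22.9 CPM. Gal3st1, a sulfotransferase of galactolipids, had 1.43 to 4.77 CPM in FKO, 2.17 to 5.29 in MKO and 0.445 to 0.660 in MWT (2.33 ± 0.44, adjusted p = 0.00782), and its adjusted p was 0.0552 without MWT1 and 0.0556 without MWT3. Eif4ebp3, a translation repressor, was lower in FKO (adjusted p = 0.0290). MWT2 had 16.1 CPM of it against 3.19 and 4.30 in the other MWT mice, and without MWT2 the log2 difference shrank from -1.77 to -0.71 (adjusted p = 0.309), while without FKO2, FKO3 or FKO4 the adjusted p was 0.0528 to 0.0632.

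Small nucleolar and spliceosomal RNAs made 9 of these 20 higher genes, out of 315 small RNA genes tested, and none was called lower. Among all autosomal genes, 0.415% were called higher and 0.362% lower. Rnu12, the U12 spliceosomal RNA, had 43.3, 13.6, 7.58, 14.1 and 4.01 CPM in FKO against 2.77 to 3.12 in MWT and 2.35 to 4.88 in MKO. Gm24119 and Gm23946, both small nucleolar RNA genes, were also highest in FKO1, at 54.0 and 15.3 CPM, and lowest in FKO5, at 10.5 and 3.29 CPM. FKO1 was the library with the highest share of small RNA counts. The 9 calls became 6 without FKO1, 7 without FKO2 and 5 without both, and the part of the small RNA share of these libraries in the result was not tested. Rnu12 lost the call without any single MWT mouse (adjusted p of 0.111 to 0.125) and without FKO1 and FKO2 together (0.0674), and Gm24119 without MWT3 (0.0508).

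The targeted gene, Esr1, had 19.7, 13.9, 11.7, 9.67 and 10.7 CPM in FKO, 8.22 to 16.1 in MKO, 25.04, 31.2 and 52.0 in MWT and 74.7 to 88.2 in FWT. Gene-level counts include exons outside the deletion, so remaining reads do not speak to the protein. All FKO mice were below all MWT mice (-1.46 ± 0.25, adjusted p = 0.00296; exact two-sided permutation p = 0.0357, the smallest possible).

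The remaining lists are given by their counts. Of 12 sulfotransferases, 3 were higher and 1 was lower (median 0.42). Of 7 aldehyde dehydrogenases, Aldh3b3 was the only one that was higher by edgeR (median 0.27). An unadjusted p under 0.05 gave 3 higher, and DESeq2 had 1. Of 13 organic ion transporters, Slc22a26, Slc22a27 and Slc10a2 were higher and Slc22a7 lower (median 0.17). Slc22a27 had 2.16 to 6.84 CPM in FKO and 0.143 to 0.247 in MWT. Slc10a2, Slc22a7, the 4 sulfotransferases, and Igfbp3 and Serpina6 above no longer passed when at least MWT1 or MWT3 was left out, with adjusted p of up to 0.178. Of 24 genes of sterol synthesis and lipogenesis, only Pnpla3, a lipid droplet acylhydrolase, was higher by edgeR (median -0.12). DESeq2 had 1 higher and 1 lower, and an unadjusted p under 0.05 gave 4 higher and 3 lower. Pnpla3 had 11.1, 15.1, 17.5, 10.004 and 0.875 CPM in FKO and 0.682 to 1.002 in MWT, so FKO5 lay within MWT, and the adjusted p of 0.0485 rose to between 0.0681 and 0.185 without FKO1, FKO2, FKO3, FKO4 or any single MWT mouse. None of 13 bile acid genes, 15 clock genes and 4 medium-chain acyl-CoA synthetases passed (medians of -0.09, -0.09 and -0.23), by edgeR's quasi-likelihood test. At an unadjusted p under 0.05, 1 bile acid gene, 2 clock genes and 0 acyl-CoA synthetases were lower, and DESeq2 had 1 bile acid gene lower. Of 13 genes of steroid reduction and inactivation, Hsd17b2, which oxidises estradiol and testosterone, was lower at 119 to 162 CPM in FKO against 184 to 225 in MWT (adjusted p = 0.0227), and no longer passed without FKO2, MWT1 or MWT3 (0.0551 to 0.130). Of 9 steroid and growth factor receptors, Esr1 alone was lower by edgeR (median -0.16). DESeq2 had 2 lower, and an unadjusted p under 0.05 gave 2 higher and 4 lower.

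**Figure D4:**
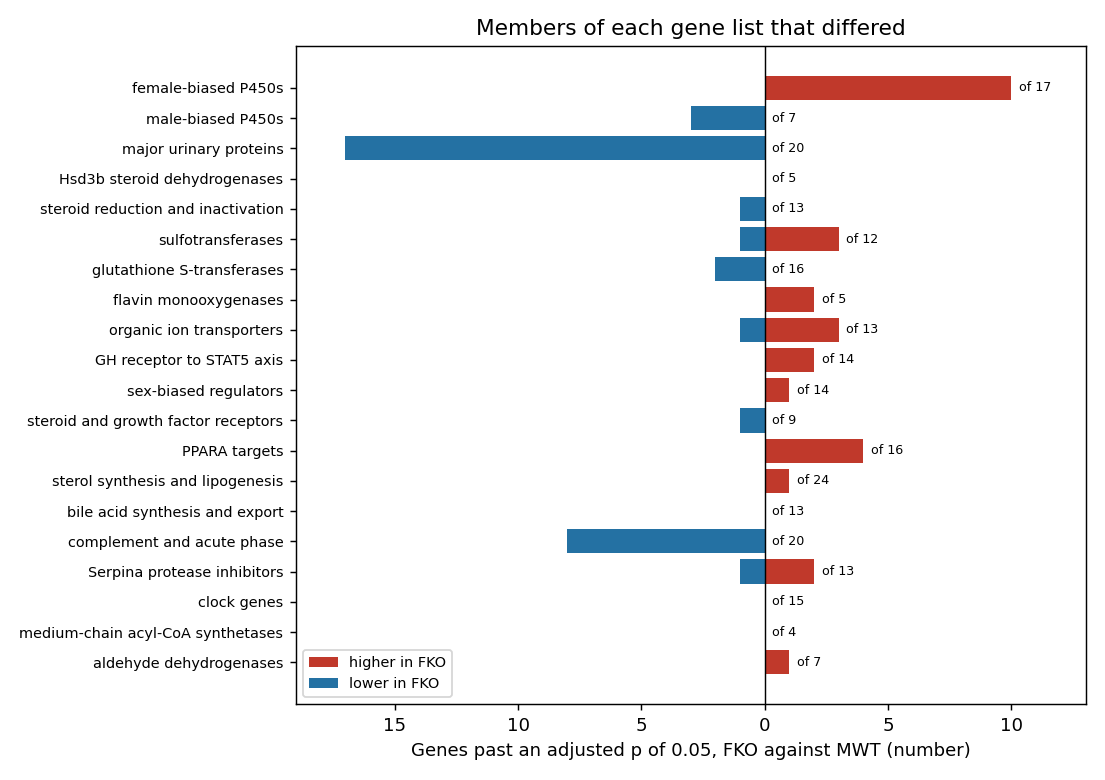
Bars count the members of each of 20 gene lists that differed between FKO and MWT at an adjusted p under 0.05, to the right when higher in FKO and to the left when lower, with the number tested beside each bar. The major urinary proteins (17 of 20 lower), the female-biased P450s (10 of 17 higher) and the complement and acute phase genes (8 of 20 lower) have the longest bars, and 4 lists have none.

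Cell type markers were measured beside these results. Of 45 markers of hepatocytes, Kupffer, endothelial, stellate, bile duct, lymphoid, neutrophil, erythroid and proliferating cells, 1 was higher in FKO (Epcam of bile duct cells, log2 difference 0.87, adjusted p = 0.0292) and none lower. DESeq2 had 2 hepatocyte markers higher and 1 lower, 2 bile duct markers higher, and no marker of the other 7 lists past its threshold. The summed bile duct markers were at 43.7 to 51.4 CPM in FKO and 34.0 to 55.6 in MWT. The summed hepatocyte markers were at 87610 to 113300 CPM in FKO and 79350 to 81480 in MWT, and Kupffer cell markers at 279 to 366 and 276 to 294 CPM. Their part in the differences was not tested.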

How the data were processed

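Liver RNA of 15 mice was sequenced after depletion of ribosomal RNA, as paired-end reads on a NovaSeq. The authors trimmed reads (Trimmomatic 0.36), aligned them with STAR to GRCm38 and counted them per gene with HTSeq (0.6.0 in the submitters' processing notes), and the deposited values are raw counts for 55573 genes. The study's methods name a later version of HTSeq, and which of the versions made the deposited counts is not known. Annotation release, strand setting and treatment of multimapped reads are not given in the sources used here.

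Genes were filtered by filterByExpr (17655 kept), scaled by TMM and fitted by edgeR 4.0.16 (quasi-likelihood, R 4.3.3) with a mean for each of the 4 groups over all 15 libraries. P values were adjusted by Benjamini-Hochberg over all genes tested, and autosomal genes (GENCODE M21) are reported. Standard errors and 95% intervals come from the fitted weights and the moderated quasi-dispersion. Log2 CPM has a prior count of 2, which draws low genes together. DESeq2 1.42.0 was an alternative. A group without a read was read at a limit of 3 counts over the group, which covers counting error only. Replicates are separate mice. The fit was tested on simulated data. Every simulated gene had the same spread and only well-counted genes were changed, so changes in low or more variable genes were not covered.

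The groups, gene lists and genes were chosen with earlier results of these data known. Named genes are, at 1 log2 CPM or more on average, the called ones whose groups do not overlap (6 largest rises, 6 largest falls), the 4 largest of each class, the 4 largest rises and falls without wild type sex difference, up to 4 members of each list and genes the study names, and some others are marked in the text. Not every gene so chosen is described, and a few results are not reported here.

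Same-numbered FKO and MWT mice did not deviate together (correlations over 11303 genes of -0.168, -0.0833 and -0.0253 for numbers 1, 2 and 3), so the numbers were not used as pairs.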

Additional observations from a re-analysis of the deposited data

Results flagged for a closer look

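Within FKO or MKO, 8 of 124 groups of values of the named genes had a highest or lowest mouse set apart by Dixon's gap test, and chance flags about 1 in 20 groups. In FKO, Acot2 was lowest in FKO1 at 1.71 CPM (others 3.81 to 4.75), Pnpla3 was lowest in FKO5 at 0.875 CPM (others 10.004 to 17.5), Sall1 was lowest in FKO4 at 5.56 CPM (others 13.5 to 15.7), and Sult2a7 was highest in FKO2 at 2.23 CPM (others 1.28 to 1.48). In MKO, Elovl3 was highest in MKO3 at 151 CPM (others 69.0 to 75.7). Cux2 was lowest in MKO1 at 0.325 CPM (others 0.559 to 0.610), Sult1c2 was lowest in MKO2 at 4.69 CPM (others 7.37 to 7.80), and Moxd1 was counted in MKO4 alone, at 0.0133 CPM.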

How the results depend on the processing

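The limits are few mice, a shared MWT reference and genes with near-identical copies. The 8 counts of genes were recomputed in 102 alternatives besides leaving out mice, and 79 gave a count within 1.5 times that reported. A log2 fold change of at least 1 gave 114 genes higher and 103 lower, and no minimum gave 220 and 208. Unadjusted p, used to choose the sex-biased genes as well, gave 116 higher. With it, 128 female-biased and 112 male-biased genes fell short and 2 and 8 overshot. A wild type sex difference of any size gave 123 female-biased genes short, 212 reached and 1 overshot, and 193 male-biased reached. At least 1 gave 46 and 65 reached and 1 female-biased overshot. A margin of 1.5-fold left 0 and 6 reached. With FKO minus MWT of at least 1.5, 0 male-biased genes overshot, and only 1 did with the FWT, MWT and FKO libraries alone or without FKO1 and FKO2, a setting chosen after seeing the data.

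With the replicate number as a block, 78 genes were higher and 68 lower, 114 of the 133 calls were shared, 4 female-biased genes reached the level and 1 male-biased gene overshot. With the block, Bcl6 passed the adjusted p (log2 difference -2.17, adjusted p = 0.0270). DESeq2 called 95 higher and 68 lower, including all 133. Leaving out 1 mouse at a time gave 47 to 90 higher and 49 to 70 lower, 39 to 73 female-biased and 50 to 74 male-biased genes short, 3 to 9 and 16 to 31 reached, and 0 to 1 and 1 to 2 overshot.

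Of 51 named genes past the threshold, 26 stayed past it in each of the settings in which they were tested. The sign of the log2 difference turned, with no call on either side, for Cyp17a1 with total counts (0.0206) and the replicate block (0.0144), with -0.311 to 0.235 when single mice were left out. For Gm4956 it turned with the block (0.0157), with -0.503 to 0.159 when single mice were left out, and for Cib3 without FKO1 and FKO2 (0.0109), with -0.393 to 0.144. The cause was not tested.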
